A study of Mus with 51 samples.

Results

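The genes described here are 37 interferon-stimulated genes, the set of transcripts that a cell makes when type I interferon binds its receptor. They were chosen by symbol, and all 37 were found, each as a single row, among the 34923 features of a count table of mouse CD4 T cells. The table holds 51 RNA-seq libraries in 18 groups, which are 6 sorting phenotypes at 1 h, 6 h and 24 h. All 37 members passed the filter on low counts, as did 17211 features in all. Every library came from lymph node cells of 1 strain, B10.A mice that lack Rag2 and carry the rearranged 5C.C7 T cell receptor alpha and beta transgenes, so that every T cell should bear the same receptor and no B cells of the host are expected.

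The 6 sorting phenotypes were no peptide (NP), the peptide labelled GP alone, the peptide labelled MCC alone, and MCC with GP (MCC+GP), with the cells given MCC or MCC+GP sorted further into those with high (CD69-hi) and low (CD69-lo) surface CD69. MCC is the moth cytochrome c peptide that 5C.C7 recognises as an agonist, and the series title speaks of endogenous self-peptides, while the labels do not spell out GP. CD69 is a membrane protein that T cells display soon after their receptor is engaged. NP at 6 h, GP at 6 h and MCC CD69-lo at 6 h had 2 libraries each and the other 15 groups had 3. Nothing in the labels says that libraries of a group came from separate animals, so the p-values measure the spread between these libraries, which may be technical.

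Type I interferons (interferon-alpha and interferon-beta) bind a receptor of the chains Ifnar1 and Ifnar2, and the kinases Jak1 and Tyk2 then phosphorylate Stat2. With Irf9 it acts in the complex ISGF3, which binds promoters of the genes described here. Their products block viral replication, sense viral nucleic acid, modify proteins with the ubiquitin-like protein Isg15, and include Irf7, Irf9 and Stat2 themselves, so that the response can feed itself. Resting T cells make a low level of many of these transcripts without infection, and many of them also respond to interferon-gamma.

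Total counts per library ran from 29030 to 10278776, and the MCC+GP CD69-lo libraries at 24 h had 237390, 29030 and 301455 counts. In those libraries 3 counts corresponded to 7.82 to 49.7 CPM (counts scaled to a library total of 1000000 with TMM normalisation factors), against 0.408 to 0.46 CPM in the MCC CD69-hi libraries at 24 h. All 10 CD4 T cell markers (Cd3e, Cd4 and Lck among them) had counts in every library of the NP and MCC CD69-hi groups. Their summed level was 5225 to 6332 CPM in NP at 1 h and 3920 to 4059 CPM in NP at 24 h. The 15 B cell markers also had counts, with a sum of 532 to 766 CPM in NP at 1 h. In bulk RNA, fewer cells of a type and less RNA per cell cannot be told apart.

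Scaled by gene length, as transcripts per 10000 in a deposited table, the most abundant members in NP cells at 1 h were Ifi27l2a (2.45), a small mitochondrial protein of the interferon response, Trim30a (1.76), Irf7 (1.76) and the membrane tether Bst2 (1.65). Ifi44 was the lowest, at 0.0061 on the same scale. Several members lie side by side in the genome (GRCm38). Ifit2 (chr19:34550550-34576534), Ifit3 (chr19:34583119-34588982), Ifit3b (chr19:34607530-34613403) and Ifit1 (chr19:34640889-34650009) form a cluster. Ifit3 and Ifit3b are near-identical copies, so the counts of either may be affected by reads that match both. Oas2 (chr5:120730333-120749886), Oas3 (chr5:120753098-120777684) and Oas1a (chr5:120896256-120907544) are neighbours, as are Oasl2 (chr5:114896926-114912245) and Oasl1 (chr5:114923143-114937911). Dtx3l (chr16:35926515-35939027) and Parp9 (chr16:35938470-35972621) overlap at their ends, so reads there may not be assignable to a single gene, and Parp14 (chr16:35831892-35871518) lies beside them.

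In cells without peptide the response was not at a fixed level. The summed level of the 37 members was 3077 ± 589 CPM at 1 h (SD, n = 3), 6759 ± 1748 CPM at 6 h (n = 2) and 3104 ± 301 CPM at 24 h (n = 3). Between 1 h and 6 h, 19 of 37 members rose and 0 fell past a false discovery rate of 0.05 in edgeR's quasi-likelihood test (all genes: 7.78% higher, 8.75% lower), with a median log2 fold change of 0.86. Zbp1, a sensor of unusual nucleic acid structures, read 140, 218 and 155 CPM at 1 h and 748 and 523 CPM at 6 h, and the groups did not overlap. The count rested on few libraries: without NP 6 h replicate 1 it was 8. The titles end in well positions, which were read here as 4 rounds of loading; the labels name no batch, and the last round holds only 3 libraries. In the first round 36 of 37 members were higher at 6 h (median log2 difference 1.44), and in the second round 24 of 37 were (0.366). Between 1 h and 24 h, 7 members fell (Isg15, Oasl1, Mx2, Rsad2, Isg20, Bst2 and Ifih1) and 1 rose, Ifit2 (all genes: 12.6% lower, 11.3% higher). Without NP 1 h replicate 2, or without NP 24 h replicate 1 or 2, that count was 5 or lower, with 4 as the lowest.

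After 1 h of MCC the CD69-hi cells differed from NP cells in few members: Irf9 and Ifit2 fell and Isg15 rose. By edgeR's quasi-likelihood test this was 2 of 37 lower and 1 of 37 higher, against 17.0% and 12.4% of all genes, and the median log2 fold change of the members was -0.20 against -0.05 for all genes. Irf9, the DNA-binding part of ISGF3, read 196, 279 and 214 CPM in NP and 134, 154 and 171 CPM in CD69-hi (log2 fold change -0.59 ± 0.18 SE, adjusted p = 0.0112). Isg15 read 17.4, 26.8 and 13.5 CPM in NP and 35.4, 59.4 and 37.4 CPM in CD69-hi, so that every CD69-hi library was higher (2.19-fold, adjusted p = 0.024). Ifit2, which binds viral RNA, was lower by 1.02 ± 0.28 on the log2 scale (adjusted p = 0.00412). The direction of the few calls at 1 h depends on the scaling: with RLE size factors 1 member was lower and 3 were higher, and the share of lower calls among all genes moved from 57.8% to 45.4%. Without MCC CD69-hi 1 h replicate 1 the calls were also 1 lower and 3 higher. Against 3 calls in the main fit, the alternatives that kept every library of the compared groups gave 4 to 9. B cell markers moved with this comparison: all 15 rose, and their sum was 2904 to 4787 CPM in CD69-hi against 532 to 766 CPM in NP. The part of these markers in the result was not tested.

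At 6 h the CD69-hi cells held lower levels of most members than NP cells of the same time. In all, 32 of 37 members fell and 0 rose (all genes: 23.6% lower, 23.2% higher), with a median log2 fold change of -2.75 and a range from -5.05 (Ifit3b) to 0.26 (Isg20). The 5 members that did not pass the test were Isg15 (log2 fold change -0.51), Oas1a (-0.79), Mx1 (-0.89), Bst2 (-0.45) and Isg20 (0.26). At 24 h, 33 of 37 fell and 2 rose (all genes: 28.7% lower, 29.2% higher), with a median of -2.96 against -0.14 for all genes. At both times 31 members fell. The share of all genes that fell at both times is not given here, and could be at most the 23.6% at 6 h. Isg20 (log2 fold change -0.75, adjusted p = 0.0786) and Eif2ak2 (-0.29, adjusted p = 0.347) did not pass at 24 h. The summed level of the members was 784 to 1201 CPM in CD69-hi at 6 h and 454 to 671 CPM at 24 h, below every NP library.

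These differences from NP were larger at the later times than at 1 h when the difference itself was tested. In the contrast of 6 h minus 1 h, 31 of 37 members were lower and 0 higher (all genes: 13.0% and 16.8%), with a median of -2.60. In 24 h minus 1 h, 32 were lower and 0 higher (all genes: 19.4% and 25.6%), with a median of -2.57. Both contrasts use the same 1 h libraries, in which the B cell marker sum was highest. Both also contain the change of NP cells between the times. From 1 h to 6 h, 19 members rose in NP (all genes: 7.78%), and all 19 were among the 32 lower in CD69-hi at 6 h. NP at 6 h had 2 libraries, and the part of this rise in the contrast was not tested. Markers of other cells were lower in the same contrasts: in 24 h minus 1 h, 15 of 15 B cell, 14 of 17 myeloid and dendritic cell and 4 of 7 plasmacytoid dendritic cell markers were lower, and in 6 h minus 1 h the counts were 5, 1 and 2. Their part was not tested. Within wells of the same round, the median log2 difference of the members at 6 h was -2.92 and -2.61 in the 2 rounds with both groups, and at 24 h it was -2.76, -2.72 and -2.53 in the 3 rounds. At 6 h the B cell marker sum was still higher in CD69-hi (687 to 1559 CPM against 400.1 to 659 CPM in NP, 6 of 15 markers higher). At 24 h it was lower in CD69-hi (191 to 363 CPM against 581 to 822 CPM, 9 of 15 markers lower). Of the 17 myeloid and dendritic cell markers tested, 6 were higher at 6 h, and 8 were lower and 2 higher at 24 h. The part of these markers in the members' fall was not tested.

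**Figure D1:**
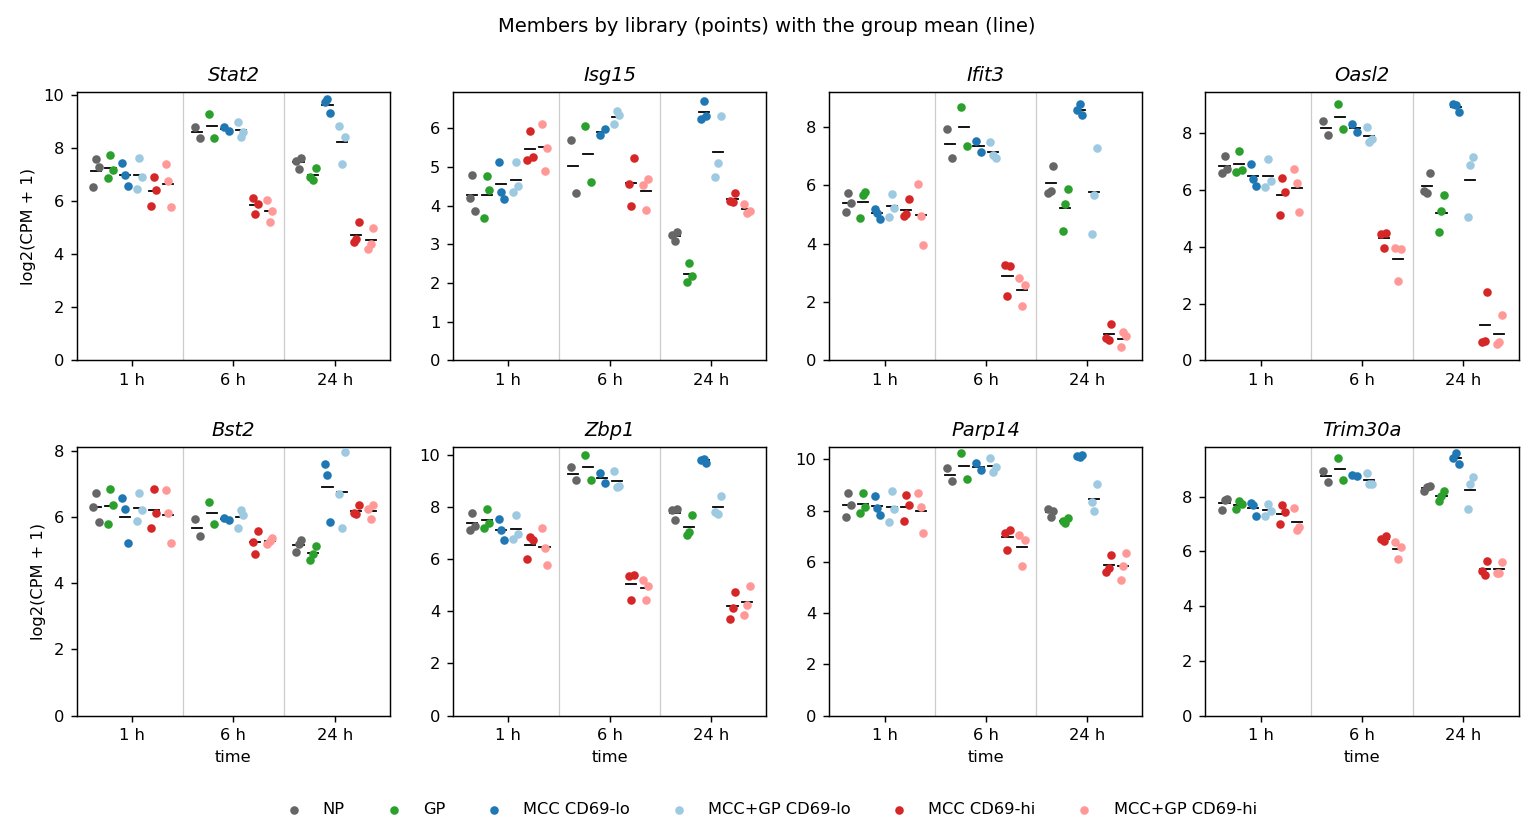
Points are the log2(CPM + 1) of 8 members in each library, by sorting phenotype and time, with a line at each group mean. In CD69-hi libraries Stat2, Ifit3, Oasl2, Zbp1, Parp14 and Trim30a sit below the NP libraries at 6 h and 24 h, whereas Isg15 and Bst2 sit above them at 24 h.

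The 3 transcription factors Stat2, Irf9 and Irf7 all fell at 6 h and 24 h. Stat2 read 437 and 331 CPM in NP and 68, 44.5 and 58.7 CPM in CD69-hi at 6 h. The 24 h values were 182, 148 and 193 CPM in NP and 20.7, 22.7 and 35.6 CPM in CD69-hi. Every CD69-hi library was thus below every NP library, and the log2 fold change was -2.75 at 6 h and -2.72 at 24 h. Irf9 read 227, 207 and 233 CPM in NP and 42.9, 47.8 and 50.1 CPM in CD69-hi at 24 h, a fall of 2.24 on the log2 scale, and at 6 h it was 3.9-fold lower. Irf7, which amplifies interferon-alpha production, lost more: it went from 361 and 261 CPM in NP to 30, 20.9 and 30.7 CPM in CD69-hi at 6 h. The values at 24 h were 101, 110 and 148 CPM in NP and 1.27, 2.76 and 2.18 CPM in CD69-hi, a log2 fold change of -5.85 ± 0.46 (SE, adjusted p = 1.57e-13).

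All 4 IFIT genes, whose products bind viral RNA and stop its translation, fell at both times, with medians of -4.38 at 6 h and -5.66 at 24 h. Ifit3 read 241 and 120 CPM in NP and 8.53, 3.61 and 8.47 CPM in CD69-hi at 6 h. At 24 h it read 51.9, 54.8 and 99.9 CPM in NP and 0.704, 0.613 and 1.36 CPM in CD69-hi (log2 fold change -6.22 ± 0.62, adjusted p = 9.8e-11). That was a 74.3-fold fall, the largest of the 36 members with counts in CD69-hi at 24 h, and its copy Ifit3b changed by -6.20. Ifit2 fell less at 24 h, from 134, 108 and 129 CPM to 14.9, 15.2 and 21.5 CPM (-2.84).

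The OAS family, named for enzymes that make the oligoadenylate signal for RNase L, fell in 4 of 5 cases at 6 h and in 5 of 5 at 24 h. At 6 h Oasl1 (-0.89, adjusted p = 0.0399) passed narrowly and was no longer called in 3 of the 5 fits that leave out a library. Oasl2 read 346 and 245 CPM in NP and 21.1, 14.5 and 21.5 CPM in CD69-hi at 6 h. It read 61.7, 58.7 and 95.2 CPM in NP and 0.563, 0.613 and 4.35 CPM in CD69-hi at 24 h, a log2 fold change of -5.23. Oas2 went from 75.8, 113 and 87.6 CPM to 0.563, 1.23 and 2.45 CPM at 24 h, 63.3-fold lower. In both genes the CD69-hi and NP libraries did not overlap.

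Of the 8 other antiviral effectors, 5 fell at 6 h, and 5 fell and 1 rose at 24 h. Samd9l, which restricts poxviruses and lowers translation, read 294 and 265 CPM in NP and 37.3, 36.1 and 49.8 CPM in CD69-hi at 6 h. The 24 h values were 209, 205 and 213 CPM in NP and 1.97, 3.06 and 6.53 CPM in CD69-hi (-5.74 ± 0.30, adjusted p = 1.62e-21), with no overlap at either time. Rsad2 (viperin, which makes a chain-terminating nucleotide) and Cmpk2, its neighbour on chromosome 12, changed by -5.36 and -4.93 at 24 h. Mx2, a GTPase against viruses, changed by -4.85. Mx1 (-2.73), whose gene is disrupted in most inbred laboratory strains, was not called without NP 24 h replicate 3.

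The sensors of nucleic acid and the PARP group fell together at both times. Zbp1 read 40, 20.7 and 41.6 CPM in CD69-hi at 6 h, 18.7-fold below NP (adjusted p = 5.01e-11), and 12.2, 16.4 and 26.1 CPM at 24 h against 236, 182 and 245 CPM in NP. Ddx58 (RIG-I, a sensor of viral RNA) went from 161, 134 and 153 CPM to 4.51, 3.37 and 5.31 CPM at 24 h, a log2 fold change of -5.07. Ifih1 (MDA5), the related sensor of long double-stranded RNA, fell by only 0.99. Parp9, Parp14 and Dtx3l modify proteins with ADP-ribose and ubiquitin. Their difference from NP was larger at 6 h (median -3.37) than at 24 h (-2.15), although this contrast between times was not tested. In Parp14 and Dtx3l the NP level was itself higher at 6 h than at 24 h. The CD69-hi level was not lower at 6 h: it was higher than at 24 h in Parp14, and the times overlapped in Dtx3l. Parp14 read 803 and 568 CPM in NP and 139, 87.6 and 151 CPM in CD69-hi at 6 h. The 24 h values were 267, 213 and 249 CPM in NP and 47.3, 52.9 and 75 CPM in CD69-hi. Dtx3l went from 520 and 387 CPM to 41.6, 25.3 and 48.5 CPM at 6 h, and from 221, 172 and 220 CPM to 31.8, 34.8 and 44.1 CPM at 24 h. The libraries of the compared groups did not overlap in any of these genes.

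The 7 other induced genes all fell at 6 h and at 24 h. Trim30a, a TRIM-family ubiquitin ligase, read 296, 323 and 330 CPM in NP and 37.6, 34.5 and 49.3 CPM in CD69-hi at 24 h, 7.8-fold lower. Ifi47, an immunity-related GTPase that also responds to interferon-gamma, read 622 and 347 CPM in NP and 45.8, 31.7 and 80.1 CPM in CD69-hi at 6 h. Its 24 h values were 170, 82.7 and 144 CPM in NP and 28.4, 38.6 and 79.5 CPM in CD69-hi (log2 fold change -1.44). Its groups came close at 24 h, and the call was lost with the compared groups alone in the fit (adjusted p = 0.0745) and without MCC CD69-hi 24 h replicate 1 (0.0588). Ifi44 had 0 counts in the CD69-hi libraries at 24 h against 24 counts in NP, and was at least 9.27-fold lower with a floor of 3 counts over the group. Rtp4, a chaperone of membrane receptors, changed by -6.00 and Xaf1, an adaptor linked to cell death, by -4.73.

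Isg15 and Bst2 went the other way at 24 h. Isg15, the ubiquitin-like protein, read 8.44, 7.53 and 8.96 CPM in NP and 16.5, 16.1 and 18.9 CPM in CD69-hi, with no overlap (log2 fold change 1.04 ± 0.40, adjusted p = 0.0232). Bst2 (tetherin), which holds budding virus at the cell surface, read 29.8, 35.4 and 39 CPM in NP and 69.3, 66.8 and 82 CPM in CD69-hi, also with no overlap (1.06 ± 0.38, adjusted p = 0.0171). Scaled by length, Bst2 was the 1st of the 37 members in CD69-hi cells at 24 h, at 1.45 transcripts per 10000, while Irf7 stood at rank 23. The other genes of Isg15 conjugation did not share the rise: Herc6, its ligase, went from 40, 49.9 and 55.4 CPM to 5.49, 2.76 and 5.58 CPM, and Usp18, its protease, changed by -3.38. In NP cells both genes were lower at 24 h than at 1 h (Isg15 by -1.20 and Bst2 by -1.21 on the log2 scale). Each rise lost its call without single libraries. Isg15 was not called without NP 24 h replicate 1 (adjusted p = 0.0507), NP 24 h replicate 2 (0.0687) or MCC CD69-hi 24 h replicate 3 (0.0645), and Bst2 was not called without NP 24 h replicate 1 (0.0619) or MCC CD69-hi 24 h replicate 3 (0.055).

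The cells given MCC together with GP, set against cells given GP alone, offered the same comparison in libraries that the MCC and NP comparison does not use. At 6 h, 35 of 37 members fell and 0 rose (all genes: 23.2% lower, 23.5% higher; median -3.37). At 24 h, 31 fell and 2 rose (all genes: 29.0% lower, 29.5% higher; median -2.67). The 32 members that fell with MCC at 6 h also fell here. Shares of all genes that fell in both sets are not given here, and could be at most 23.2% at 6 h and 28.7% at 24 h. At 24 h 31 members fell in both sets, and the 2 that rose in both were Isg15 (here 1.88, adjusted p = 0.000354) and Bst2 (1.31, adjusted p = 0.004). Both rises were kept under every alternative run for this set. Across the 37 genes, which are not independent replicates, the log2 fold changes of the 2 sets had a Pearson r of 0.142 at 1 h, where Ifi44 had 0 counts in MCC CD69-hi, 0.959 at 6 h and 0.945 at 24 h; this is a description. At 1 h, 6 members were lower and 2 higher (all genes: 20.1% and 13.7%). That split reversed with RLE size factors, to 1 lower and 3 higher, and the share of lower calls among all genes moved from 59.4% to 40.3%. The count was 2 without GP 1 h replicate 1, 3 without GP replicate 2 or MCC+GP CD69-hi replicate 2, and 4 without MCC+GP CD69-hi replicate 3, and in the last 3 cases more members were higher than lower. Irf9 was lower and Isg15 higher at 1 h in both sets.

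**Figure D2:**
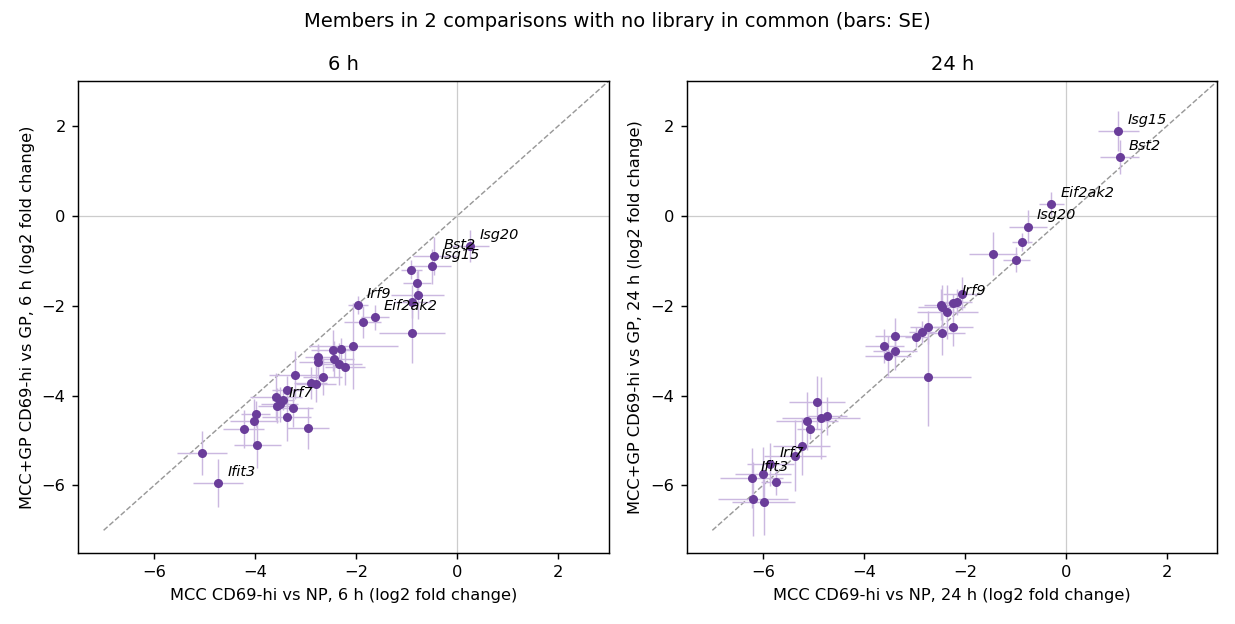
Each point is a member, with the log2 fold change of MCC CD69-hi against NP on the x axis and of MCC+GP CD69-hi against GP on the y axis, at 6 h (left) and 24 h (right). Most points lie near the diagonal below 0, and Isg15 and Bst2 lie above 0 on both axes at 24 h; Ifi44 is not drawn at 24 h because it had 0 counts in MCC CD69-hi.

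The cells given MCC and sorted as CD69-lo gave no call among the members at 1 h or 6 h. Against NP, 0 of 37 members passed the test at 1 h (all genes: 0.436% lower, 2.72% higher) and 0 at 6 h (0% lower, 2.12% higher). With an unadjusted p under 0.05, 0 members passed at either time, against 11.6% and 8.94% of all genes, and DESeq2 also called 0. At 24 h, 35 of 37 members rose and 0 fell (all genes: 9.83% higher, 8.65% lower), with a median log2 fold change of 1.98. These 3 CD69-lo libraries held 941304 to 2870776 counts. The summed level of the members was 9289 to 11295 CPM, against 2834 to 3428 CPM in NP. Irf9 (0.32) and Ifit2 (0.39) were the 2 that did not pass.

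Isg15 rose most in these CD69-lo cells, to 73.7, 104 and 78.9 CPM at 24 h (log2 fold change 3.37 ± 0.40, 10.3-fold, adjusted p = 7.39e-08). Mx2 was 7.17-fold higher. Stat2 read 831, 910 and 635 CPM, Oasl2 read 529, 515 and 428 CPM, and Zbp1 read 910, 930 and 838 CPM. Stat2, Oasl2 and Zbp1 each lay above every NP library at 24 h, and also above both NP libraries at 6 h. Parp14 read 1129, 1102 and 1152 CPM (4.64-fold). Ifi47 read 753, 687 and 631 CPM (5.21-fold). Samd9l (461, 478 and 388 CPM, 2.12-fold), Ddx58 (237, 294 and 248 CPM, 1.75-fold) and Trim30a (673, 777 and 578 CPM, 2.14-fold) were higher by smaller folds. Bst2 was uneven, at 194, 154 and 56.5 CPM. The lowest value came from the last replicate, the only library of this group in the last round, which holds no NP library. The same library gave the lowest Siglech and Socs1 values and the highest Ifng value of the group, given below. Within wells of a round, 37 of 37 members were higher in each of the 2 rounds that hold both groups, with medians of 2.19 and 1.88.

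**Figure D3:**
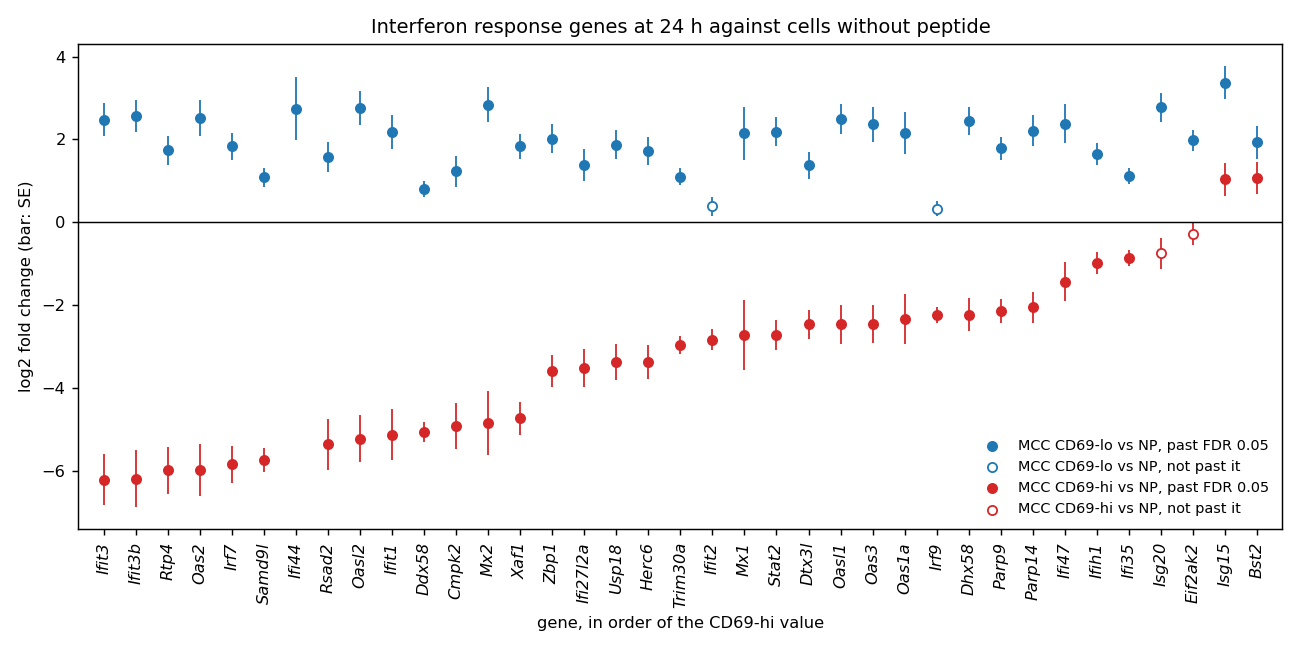
Points show the log2 fold change of each member at 24 h in MCC CD69-lo and in MCC CD69-hi, each against NP, with bars of 1 SE; filled points passed a false discovery rate of 0.05. CD69-lo values lie between 0.32 and 3.37, and CD69-hi values run down to -6.22, with Isg15 and Bst2 above 0; both sets of values share the NP libraries.

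Markers of other cell types moved with the rise in CD69-lo cells. The 10 CD4 T cell markers had counts in every library and their sum was 2677 to 2862 CPM, against 3920 to 4059 CPM in NP, with 6 of 10 lower. Of the plasmacytoid dendritic cell markers, a cell type known for making interferon-alpha, 6 of 7 tested were higher, and their sum was 183 to 359 CPM against 119 to 134 CPM. In MCC CD69-lo 0 to 2 of the 8 listed were at 0, and 2 to 4 in NP. Siglech, the defining marker and chosen here after its values were seen, read 64.2, 76.8 and 9.16 CPM in CD69-lo and 0, 0.377 and 0.911 CPM in NP. Of the myeloid and dendritic cell markers 6 of 17 tested were higher, with a sum of 624 to 1022 CPM against 68.2 to 249 CPM, of which the chemokine Ccl22 made up 713, 272 and 610 CPM; 2 to 6 of the 18 listed were at 0. Of the B cell markers 1 of 15 was higher (694 to 1493 CPM against 581 to 822 CPM), and of the NK and CD8 T cell markers 6 of 9 were higher and 1 lower. The part of these cells in the members' rise was not tested.

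**Figure D4:**
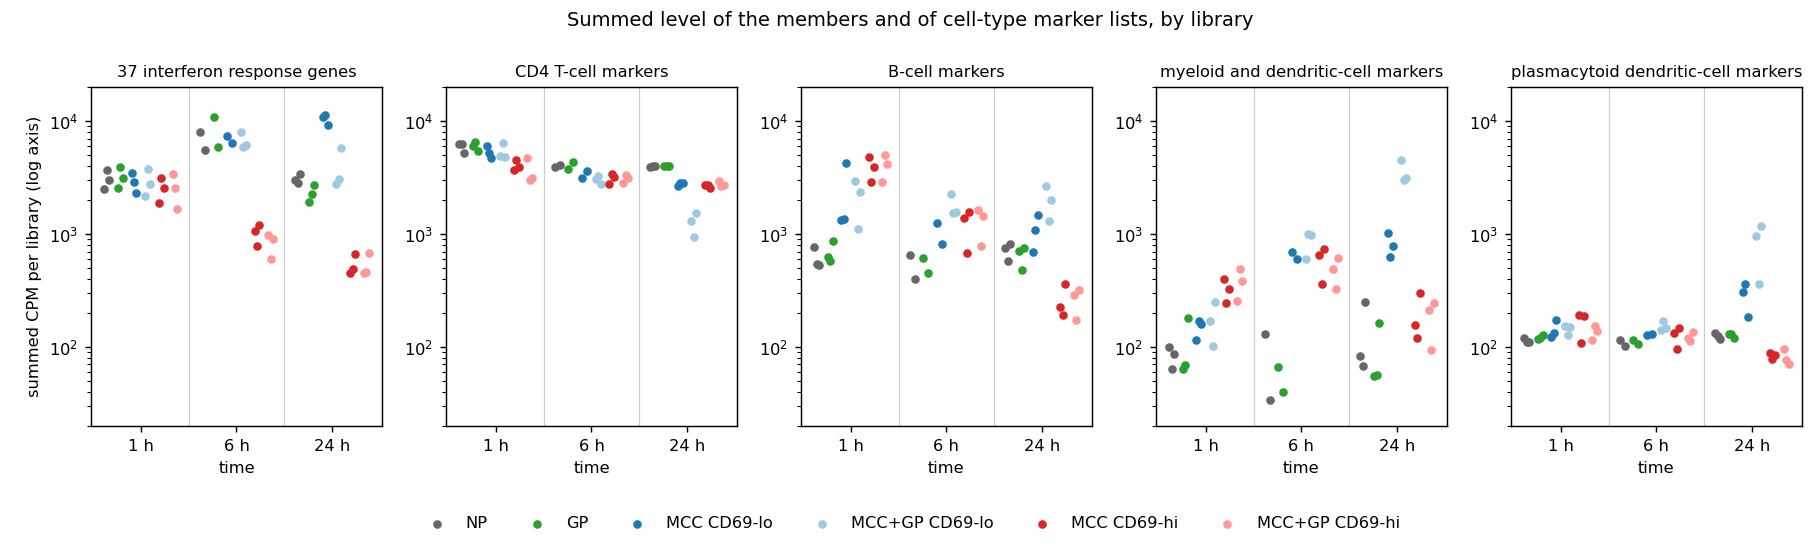
Points are the summed CPM of the 37 members and of each marker list in each library, on a log axis, by sorting phenotype and time. Member sums in CD69-hi fall to 454 to 671 CPM for MCC at 24 h, while in MCC CD69-lo they reach 9289 to 11295 CPM, where plasmacytoid and myeloid marker sums are also above those of NP.

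The CD69-hi and CD69-lo cells of the MCC groups were also set directly against each other at each time; the change of this difference between times was not tested. At 1 h, 2 of 37 members were lower in CD69-hi and 0 higher (all genes: 9.06% and 3.46%), and leaving out single libraries gave 0 to 3 (0 without MCC CD69-hi replicate 1, and 1 without its replicate 2 or 3 or CD69-lo replicate 2). At 6 h, 34 were lower and 0 higher (all genes: 22.5% and 19.9%; median -2.80). At 24 h all 37 were lower (all genes: 32.6% lower, 29.1% higher), with a median of -4.91 and values from -8.76 (Ifit3b) to -0.87 (Bst2). In 36 members every CD69-hi library was below every CD69-lo library, and the libraries overlapped in Bst2. The share of all genes without such overlap is not given here, so how unusual this count is cannot be read from it. Leaving out single libraries gave 36 or 37 calls. Ifit3 read 376, 440 and 338 CPM in CD69-lo and was under 1.4 CPM in each CD69-hi library (-8.69). The marker lists differed between these groups at 24 h as well, with 14 of 15 B cell markers and 6 of 7 plasmacytoid dendritic cell markers lower in CD69-hi, and their part was not tested.

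GP alone gave no call among the members. Against NP, 0 of 37 passed at 1 h, 6 h, 24 h and over the mean of the 3 times; of all genes 0% were lower in each, and 0%, 0%, 0.00581% and 0% were higher. With an unadjusted p under 0.05 there were 0, 0, 8 and 0 members, against 0.802%, 0.732%, 1.10% and 1.16% of all genes, and DESeq2 called 0 in each. The 8 at 24 h were Irf7, Irf9, Isg15, Ifit3, Oasl2, Rsad2, Cmpk2 and Samd9l. All 37 estimates were below 0 at 24 h (all genes: 49.4% below 0), with a median of -0.45. At 6 h 36 of 37 were above 0 (all genes: 49% below 0), with a median of 0.35. The 37 genes are not independent replicates. Within rounds, 33, 34 and 36 of 37 members were lower with GP at 24 h (median log2 differences -0.66, -0.37 and -0.39), and at 6 h 35 and 25 of 37 were higher. Where the fit held the compared groups alone, 3 members were called lower at 24 h: Oas3, Samd9l (adjusted p = 0.035) and Xaf1 (0.0416). Over the mean of the 3 times, the 95% intervals of the members reached from -1.27 (Ifi44) to 0.93 (Mx1) on the log2 scale. Most intervals were narrower, with a median SE of 0.21, and changes within a member's own interval could not be told apart from none. That mean also pools 6 h and 24 h, where most estimates had opposite signs.

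Adding GP to MCC gave no call among the members in CD69-hi cells. At 1 h 0 of 37 passed (all genes: 0.453% lower, 0.227% higher), at 6 h and 24 h 0 (all genes: 0% in each direction), and over the mean of the times 0 (0.0116% lower, 0% higher). With an unadjusted p under 0.05 there were 2 at 1 h (Ifit2 and Ifi44), 3 at 6 h (Cmpk2, Ddx58 and Rtp4), 0 at 24 h and 1 over the mean (Ifi44), against 16.4%, 0.976%, 0.715% and 7.03% of all genes. DESeq2 called 2 higher at 1 h and 0 at the other times. In CD69-lo cells GP gave 0 calls at 1 h and 6 h (all genes: 0% in each direction), with 0 members at an unadjusted p under 0.05 in both, against 0.715% and 5.64% of all genes, and DESeq2 called 0.

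At 24 h the MCC+GP CD69-lo cells had lower levels than MCC CD69-lo cells in 20 of 37 members, and 0 were higher (all genes: 12.0% lower, 7.37% higher), with a median of -1.30 against -0.29 for all genes; with Ifi44 at its bound the median was -1.25. Stat2 read 454, 166 and 342 CPM with GP, below the 831, 910 and 635 CPM without it, and Parp14 read 319, 249 and 527 CPM. The 3 MCC+GP libraries are the shallowest of the series, and Ifit2 had 0 counts in the second. Calls fell to 7 without MCC+GP CD69-lo 24 h replicate 1, and to 12 where the fit held the compared groups alone. With RLE size factors 14 were lower, and the share of lower calls among all genes went from 61.9% to 42.9%. CD4 T cell markers were lower in these libraries (sum 944 to 1546 CPM, 7 of 10 lower) and myeloid and plasmacytoid markers were higher (sums 3048 to 4581 and 364 to 1192 CPM; 8 of 17 and 4 of 7 higher). Their part was not tested.

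The genes of the pathway around the members gave the following, and their counts stand beside shares of all genes of 23.6% lower and 23.2% higher (MCC CD69-hi, 6 h), 28.7% and 29.2% (MCC CD69-hi, 24 h), and 8.65% and 9.83% (MCC CD69-lo, 24 h). Of 18 type I interferon genes looked for, 13 were in the table and 0 passed the filter on low counts. They had 111 counts together over the 51 libraries, in 32 libraries, and at most 33 in 1 library (MCC CD69-hi at 1 h, replicate 3, with Ifna4 at 3.71 CPM and Ifnb1 at 3.4 CPM). Of 12 genes of interferon receptor signalling, 7 were lower and 3 higher in MCC CD69-hi at 6 h against NP, 5 and 3 at 24 h, and 1 and 5 in CD69-lo at 24 h. Ifnar1, a receptor chain, read 380 and 402 CPM in NP and 62.4, 52.1 and 59.9 CPM in CD69-hi at 6 h (-2.75 ± 0.16, adjusted p = 5.04e-22). At 24 h it read 260, 228 and 226 CPM in NP, 73.1, 64.5 and 63.5 CPM in CD69-hi, and 208, 208 and 267 CPM in CD69-lo, where it was not called (-0.06). Ifnar2, the other chain, was not called in CD69-hi at 6 h (-0.61) or 24 h (-0.33). Jak1 was lower in CD69-hi (-1.96 and -1.87) and also in CD69-lo at 24 h (-0.94). Socs3, an inhibitor of Jak signalling, was lower in CD69-hi (-4.21 at 6 h, -3.89 at 24 h). Socs1, an inhibitor as well, rose at 1 h (2.57) and read 419, 351 and 40.7 CPM in CD69-lo at 24 h, an uneven group.

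Of 9 factors of the IRF family outside the members, 3 were lower and 3 higher in CD69-hi at 6 h, and 4 and 2 at 24 h, against shares of all genes of 23.6% and 23.2%, and 28.7% and 29.2%. Irf4, induced by the T cell receptor, rose in CD69-hi (4.73 at 6 h, 6.62 at 24 h) and in CD69-lo at 24 h (3.96). Irf1, an early gene of the interferon-gamma response, was lower in CD69-hi (-2.69 and -1.31) and higher in CD69-lo at 24 h (1.72). Of 12 genes of sensing upstream of interferon, 4 were lower and 3 higher in CD69-hi at 6 h, and 4 and 2 at 24 h, against the same shares; Ikbke, a kinase of that path, changed by -3.47 and -2.53.

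The interferon-gamma response list and a list of other interferon-stimulated genes are set here against shares of all genes of 23.6% lower and 23.2% higher (CD69-hi, 6 h), 28.7% and 29.2% (CD69-hi, 24 h), and 8.65% and 9.83% (CD69-lo, 24 h). Of 20 genes of the interferon-gamma response, 17 were lower and 1 higher in CD69-hi at 6 h (median -3.52), 15 and 3 at 24 h (-1.59), and 0 and 17 in CD69-lo at 24 h (2.02). Gbp4, a guanylate-binding protein, changed by -4.46, -2.39 and 2.25 in those comparisons. Of 26 other interferon-stimulated genes, 22 were lower and 0 higher in CD69-hi at 6 h (median -2.14), 21 and 0 at 24 h (-1.43), and 0 and 21 in CD69-lo at 24 h (1.25). Ifng, the gene of interferon-gamma itself, read 0, 0 and 0.304 CPM in NP at 24 h. It read 7.56, 13.3 and 72.8 CPM in CD69-lo (adjusted p = 0.000788) and 3.66, 2.91 and 13.2 CPM in CD69-hi (adjusted p = 0.00416) at that time. Every library of both MCC groups was thus above every NP library, and the CD69-lo group was uneven.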

How the data were processed

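Raw read counts per gene were used for every test. The authors used HTSeq 0.9.1 for counting, STAR 2.6.1c for alignment (mm10 is the build named) and bcl2fastq 2.20 for base files, as listed in the submitters' processing notes. Per the labels, poly-adenylated RNA was sequenced as paired reads, and the strand setting of the counting is not given in the sources used here. A second table deposited by the authors as TPM has columns that sum to 9986 to 9996, and was used for the order of members by length-scaled level. In 1014 genes and 38 libraries checked, its values followed the counts to within 0.0255% (largest coefficient of variation).

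Counts were normalised with TMM in edgeR 4.0.16 (limma 3.58.1, R 4.3.3) and filtered by group, which kept 17211 features. All 51 libraries entered 1 quasi-likelihood fit with a coefficient per group, and p-values were adjusted over all features (Benjamini-Hochberg, threshold 0.05). "Higher" and "lower" counts are features past that threshold, log2 fold changes carry standard errors from the fit, and floors of 3 counts cover counting error only. The steps were tested on simulated data. Replicates of a group differed beyond counting error (chi-square per degree of freedom 3.91 to 19.28), and replicate numbers follow accession order. Members and lists were chosen with earlier results of these data known. Members given library by library are the 2 with the highest mean CPM in each role, plus those called against the majority at 24 h. Irf7 was given as well, outside that rule. For the other lists, up to 4 of the highest genes and Ifnar1, Ifnar2, Irf1, Irf4, Socs1, Gbp4 and Ifng could be named. Alternatives were RLE size factors, no filter, DESeq2 1.42.0, only the compared groups, a term for the plate round (inferred from well positions in the titles, since no label names a batch), and leaving out libraries. Coordinates are from a RefSeq table of GRCm38.p6. No sequences were analysed here, and some genes are not reported here.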

Additional observations from a re-analysis of the deposited data

Results flagged for a closer look

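The difference between MCC CD69-hi and NP was not the same at the 3 times, by a test of the difference itself in edgeR's quasi-likelihood fit. In 6 h minus 1 h, 31 of 37 members were lower (all genes: 13.0% lower, 16.8% higher). In 24 h minus 1 h, 32 of 37 were lower (all genes: 19.4% lower, 25.6% higher). In the first of these contrasts Oas1a, Oasl1, Mx1, Isg20, Bst2 and Ifi44 did not pass. In the second Isg15 (-0.09), Bst2 (1.18), Eif2ak2, Ifi44 and Ifi47 did not pass. Both contrasts also contain the change of NP cells between the times. From 1 h to 6 h, 19 members rose in NP (all genes: 7.78%), and all 19 were among the 32 lower in CD69-hi at 6 h. The part of this rise was not tested. The 1 h libraries of CD69-hi cells had the highest B cell marker sums. In 24 h minus 1 h, 15 of 15 B cell, 14 of 17 myeloid and dendritic cell and 4 of 7 plasmacytoid dendritic cell markers were lower, and in 6 h minus 1 h 5, 1 and 2 were. The part of these markers in these contrasts was not tested. No group had more than 3 libraries, so none was examined for an outlying library.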

How the results depend on the processing

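The counts of members called in MCC CD69-hi against NP at 6 h stayed between 29 and 33, at 24 h between 33 and 36, and in MCC CD69-lo against NP at 24 h between 32 and 35 in every alternative run; MCC+GP CD69-hi against GP gave 30 to 36 at 6 h and 33 to 34 at 24 h. No member changed sign past the threshold in any alternative. The 1 h comparisons did not hold in this way. MCC CD69-hi against NP, with 3 calls, gave 4 with RLE size factors and 4 with DESeq2 (1 lower and 3 higher in both), 6 with no filter, 9 with only the compared groups, 7 with the replicate block, 6 without the 3 shallow MCC+GP CD69-lo libraries of 24 h, and 2 to 4 with a library left out. MCC+GP CD69-hi against GP, with 8 calls, gave 4 with RLE, 5 with no filter, 6 with DESeq2, 5 with the compared groups, 4 with the replicate block, 5 without the shallow libraries, and 2 to 6 with a library left out; the majority turned to higher with RLE, no filter and DESeq2, and with a library left out in cases with 3, 3 and 4 calls. MCC CD69-hi against CD69-lo gave 1 with RLE and 0 to 3 with a library left out. GP added to MCC in CD69-hi cells at 1 h, with 0 calls, gave 2 with no filter, 2 with DESeq2, 1 with the replicate block and 2 without the shallow libraries. Where the fit held the compared groups alone, GP against NP at 24 h gave 3, MCC+GP against MCC in CD69-lo at 24 h 12, and NP at 24 h against 1 h 16. With a library left out these ranged from 0 to 0, 7 to 22 and 4 to 8, and NP at 6 h against 1 h from 8 to 21. The MCC+GP CD69-lo comparison at 24 h gives no value without those 3 libraries. The cause of these changes was not tested. RLE size factors moved the median of all genes by -0.281 (24 h minus 1 h, MCC CD69-hi against NP), 0.208 (MCC+GP CD69-hi against GP, 1 h) and 0.222 (MCC+GP against MCC, CD69-lo 24 h). Isg20 in MCC CD69-hi at 24 h was called with RLE, DESeq2, no filter and the compared groups. Libraries of the same plate round and time deviated together in 83.6% of 110 pairs (r over 0.1; median 0.327, lowest -0.047), against 7.51% of 253 pairs of the same time in different rounds (median -0.131). The values thus differ by round. The tests reported carry no term for it, so their p-values do not take the rounds into account. The fit with the replicate block was run only as an alternative. Depth limits the MCC+GP CD69-lo libraries at 24 h most, where a gene under 7.82 to 49.7 CPM could not be told from 0.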
